A study of Homo sapiens with 6 samples.

Results

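The AP-1 family and its close relatives were followed in U251 glioma cells on aligned and on random nanofibers, with 10 genes: FOS, FOSB, FOSL1, FOSL2, JUN, JUNB, JUND, JDP2, BATF3 and MAFF. Members were all probe sets, short sets of probes read as 1 value, that the platform annotation pairs with exactly 1 gene symbol from these names. That gave 22 probe sets for 10 genes, out of 41091 probe sets for 19775 genes in the whole table. Of the 22, 20 were kept for testing, those that exceeded the array's median on 3 or more arrays, and each of the 10 genes kept at least 1. U251 is an established human glioblastoma line, here labelled U251MG. The 3 cultures called aligned grew on highly aligned electrospun fibers of poly-caprolactone, a biodegradable polyester, and the 3 cultures called random grew on the same polymer with fibers in random directions. All cultures shared the cell line, 60 mm dishes, serum at 10%, no further treatment and RNA collection after 24 h. A culture on a flat surface is not among the samples, so differences compare 2 fiber layouts, and a single cell line limits them to that line.

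AP-1 is a transcription factor made of a pair of basic leucine zipper proteins, which join through a zipper of leucines and hold DNA with an adjoining basic stretch. FOS proteins need a JUN partner, whereas JUN proteins can also pair among themselves. Growth factors, stress and contact with the substrate act on the family through MAP kinases, and in glioma AP-1 is known for its part in invasion and in the mesenchymal state. FOSL1 and FOSL2 encode FRA1 and FRA2, the FOS relatives that lack the strong activation domain of FOS. JDP2 and BATF3 encode partners that can repress transcription at AP-1 sites, and MAFF encodes a small MAF protein without an activation domain.

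Values are log2 RMA levels, so 1 unit is a factor of 2, and every difference is aligned minus random. No AP-1 probe set passed the test across the whole table. In limma with Benjamini-Hochberg adjustment, 0 of 20 had an adjusted p under 0.05, where the background was 0% of 27621 probe sets. By value, the members differed in direction: FOSL1, MAFF and JDP2 read higher on aligned fibers, all 5 FOSL2 probe sets read lower, and most probe sets of JUN, JUNB and JUND differed by little. At an unadjusted p under 0.05 there were 9 of 20 AP-1 probe sets, against a background of 9.69% of all probe sets. That count was 5 without aligned 3, where the background was 5.41%, and 2 without random 2, where it was 5.64%. Of the 9, 4 were higher on aligned fibers (background 3.86%) and 5 were lower (background 5.83%). The 5 lower ones all belong to FOSL2 and read the same transcript, so they are not 5 separate genes. Counting 1 probe set per gene, 4 of 10 genes passed the unadjusted limit, 3 higher and 1 lower, against 10.5% of all genes so counted. The groups were fully apart with aligned higher in 3 of the 20 (background 7.61%) and with aligned lower in 4 (background 8.86%). The median difference was 0.04 over the 20 and -0.0034 over all probe sets. The plot of differences shows that the FOSL2 intervals lie below 0, that those of FOSL1, MAFF and JDP2 lie above 0, and that those of FOS, FOSB, BATF3, JUN, JUNB and JUND include it. In such bulk RNA, fewer cells of a kind and less RNA per cell cannot be told apart.

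**Figure D1:**
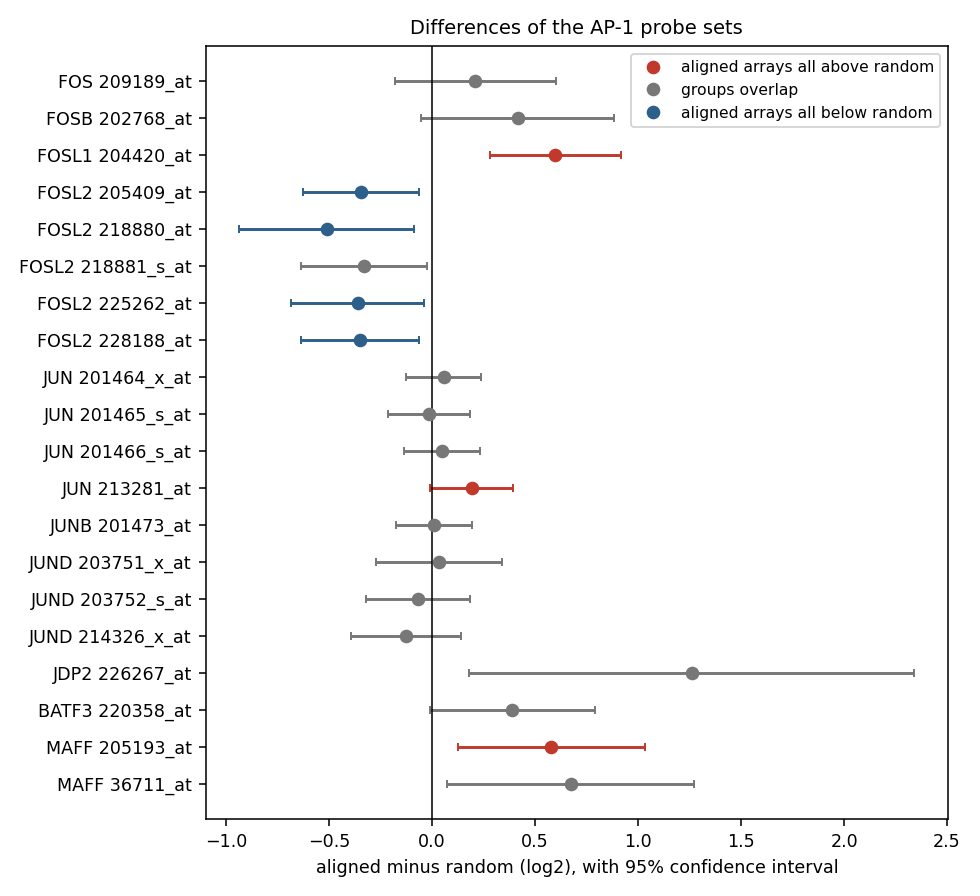
Difference between aligned and random fibers on the log2 scale (horizontal axis) for the 20 AP-1 probe sets that were kept, with 95% confidence intervals from limma. Red marks the 3 probe sets whose aligned arrays are all higher than the random ones, blue the 4 in which they are all lower, and grey those in which the groups overlap.

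One array, aligned 3, stood apart from the others. Measured as root mean square distance from the random mean, aligned 3 stood 0.37 log2 units away, against 0.19 for aligned 1 and for aligned 2. The random arrays stood between 0.10 and 0.13 away. They are part of that mean and so lie nearer to it by construction, which leaves only the aligned arrays comparable with each other. Its 18S ribosomal RNA control read 9.78, whereas the other arrays read between 8.40 and 9.14. The 3' minus 5' signal of GAPDH lay between 0.09 and 0.16 on aligned and between 0.08 and 0.12 on random fibers. Of 13 glioma and astrocyte markers, 10 were kept, with vimentin and nestin among them. Of these 10, 8 read lower on aligned fibers, where 49.1% of all probe sets read higher. The median difference was -0.20, against -0.0034 over all probe sets. At an unadjusted p under 0.05 there were 2 lower and 1 higher (background 5.83% and 3.86%). The lower ones were the neural stem cell factors SOX9 and SOX2, with differences of -0.53 ± 0.18 and -0.44 ± 0.18 (SE), and the higher one was EGFR, with 0.45 ± 0.16 (SE). FABP7, a radial glia marker, read 12.36, 11.86 and 10.39 on aligned fibers, against 12.50, 12.45 and 12.35 on random fibers. The astrocyte gene GFAP was low, at 5.80, 4.87 and 5.00 on aligned fibers, against 6.65, 6.20 and 5.24 on random fibers. The glial markers S100B, ALDH1L1 and AQP4 lay below the filter. Among them S100B read 4.97, 4.69 and 4.04 on aligned fibers, against 5.73, 5.76 and 5.60 on random fibers. Its groups did not overlap, and with no filter its difference was -1.13 ± 0.21 (SE, unadjusted p = 0.00042, adjusted p = 0.562 in limma). Of 15 genes of leukocytes, endothelium, epithelium, neurons and oligodendrocytes, 7 were below the filter. The other 8 all read slightly higher on aligned fibers, by 0.03 to 0.15, where 49.1% of all probe sets read higher. Of these 8, 0 had an unadjusted p under 0.05 (background 9.69%). Their mean lay between 6.54 and 6.65 on aligned and between 6.44 and 6.52 on random arrays. The leukocyte gene PTPRC and the epithelial gene EPCAM read at most 4.03. Other genes of these kinds read higher. The epithelial gene KRT18 read between 9.69 and 9.91 over all arrays. The leukocyte genes CD3E and ITGAM read between 5.70 and 6.14 and between 5.16 and 5.55. The part of the 18S signal and of these markers in the AP-1 differences was not tested.

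Sequences around the start of 2 members that went in opposite directions are shown to place their AP-1 and cAMP response letters. Promoter windows of 300 bases, from 250 before the start to 50 from it on, came from RefSeq (GRCh38.p14), which held 11 windows for 8 of the 10 members. The letters searched on both strands were the AP-1 site TGANTCA, the full cAMP response element TGACGTCA, its shorter form TGACG, which the full element contains, and the CArG box bound by SRF. The stretches below run from 100 bases before the start to 30 from it on, along the plus strand. They are FOSL2 at chr2:28392758-28392887 and MAFF at chr22:38201894-38202023, with matches in capitals.
FOSL2: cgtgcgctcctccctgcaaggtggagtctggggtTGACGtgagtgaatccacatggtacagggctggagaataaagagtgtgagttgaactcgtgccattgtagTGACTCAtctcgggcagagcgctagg
MAFF: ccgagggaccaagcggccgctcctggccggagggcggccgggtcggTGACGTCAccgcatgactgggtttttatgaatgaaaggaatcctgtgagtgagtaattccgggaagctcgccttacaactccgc

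The AP-1 site of FOSL2 lies 4 to 10 bases after the start base. It was the only match to TGANTCA in the 11 windows, whereas 7.71% of the 35116 windows of all genes hold one. Variants of these letters were not searched, such as TGACATCA, which the window of JUN holds. A full cAMP response element stood in 2 of the 11, the window of MAFF shown above and that of JUND, against 1.85% of all windows. The short form TGACG stood in 8 of the 11, against 24.6% of all windows, and the CArG box in 0 of the 11, against 1.29%. Letters more than 250 bases before the start were not searched. The 11 windows held 62.0% to 86.3% G and C, against a median of 58.7% over all windows. JDP2 and MAFF have more than 1 window each. The part of base content in these counts was not tested. FOS and FOSB gave 1 match each to the short form, whose first base lies at -64 in FOS and at -60 in FOSB, counted from the start base. These matches describe letters in the windows, and binding was not measured.

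FOSL1 had the smallest p of the family. Its probe set 204420_at read 10.06, 10.04 and 10.26 on aligned fibers, against 9.75, 9.56 and 9.25 on random fibers. The groups did not overlap, and aligned 3 was the highest and random 3 the lowest of the 6. FOSL1 averaged 10.12 ± 0.12 on aligned fibers, against 9.52 ± 0.25 on random ones (SD, n = 3 each). That is a log2 difference of 0.60 ± 0.14 (SE), or 1.51-fold, with an unadjusted p of 0.0027 and an adjusted p of 0.506 in limma. With any 1 array left out, the FOSL1 difference stayed between 0.46 and 0.71, and its unadjusted p was at most 0.0091. FOSL1 lies on chromosome 11 (65892049 to 65900545, GRCh38.p14), and 1 probe set reads it here.

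FOSL2, the nearest relative of FOSL1, ran the other way on every one of its 5 probe sets. The brightest, 225262_at, read 10.47, 10.29 and 9.96 on aligned fibers, against 10.61, 10.71 and 10.48 on random fibers. The highest aligned array lay just under the lowest random one, so these groups did not overlap. Its average of 10.24 ± 0.26 on aligned fibers, against 10.60 ± 0.12 on random ones (SD, n = 3 each), gave a difference of -0.36 ± 0.14 (SE), with an unadjusted p of 0.033 and an adjusted p of 0.511 in limma. The largest difference was at 218880_at, with 9.25, 9.08 and 8.49 on aligned fibers, against 9.46, 9.51 and 9.40 on random fibers. Here aligned 3 stood far below the other aligned arrays, and the difference was -0.51 ± 0.18 (SE). The other 3 FOSL2 probe sets differed by -0.35, -0.33 and -0.35, and 218881_s_at was the one in which a random array, at 7.95, reached into the aligned range of 7.49 to 7.96. Without aligned 3 the 5 differences lay between -0.29 and -0.20, all still negative, with unadjusted p between 0.016 and 0.097. Without random 2 all 5 had an unadjusted p above 0.05.

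**Figure D2:**
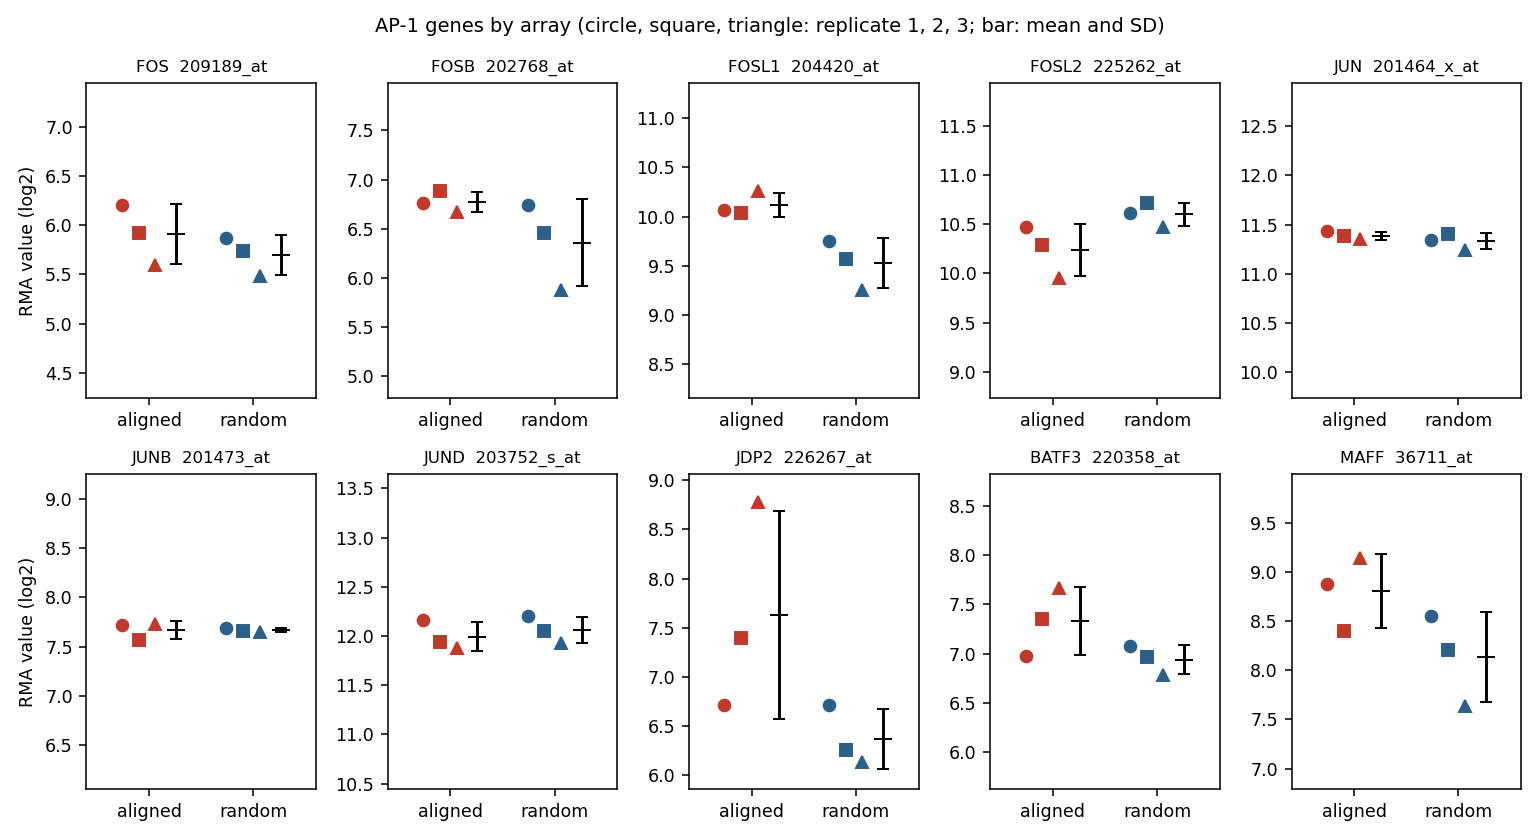
RMA value (log2, vertical axis, all panels 3.2 units high) of each of the 10 AP-1 genes on each array, at its brightest kept probe set. Circles, squares and triangles are replicates 1, 2 and 3, and bars give the mean and SD of 3 arrays. FOSL1 is higher and FOSL2 lower on aligned fibers, JUN, JUNB and JUND lie level, and JDP2 spreads widely on aligned fibers.

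The opposite directions of FOSL1 and FOSL2 were set against each other within each array, a comparison chosen after their values were seen. FOSL1 minus FOSL2 (225262_at) was -0.41, -0.25 and 0.31 on aligned fibers, against -0.86, -1.15 and -1.22 on random fibers. These numbers carry the brightness of 2 different probe sets, so only their change between groups has a meaning. Since FOSL1 alone and FOSL2 alone each set the groups fully apart in opposite directions, their difference had to do so too, and no p is given for it. The change was 0.96 log2 units. It was 0.98 with the mean of the 5 FOSL2 probe sets, between 0.93 and 1.11 with each of them in turn, and 0.75 without aligned 3. Both values shift together under any scaling of a whole array, so the change does not depend on centring.

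**Figure D3:**
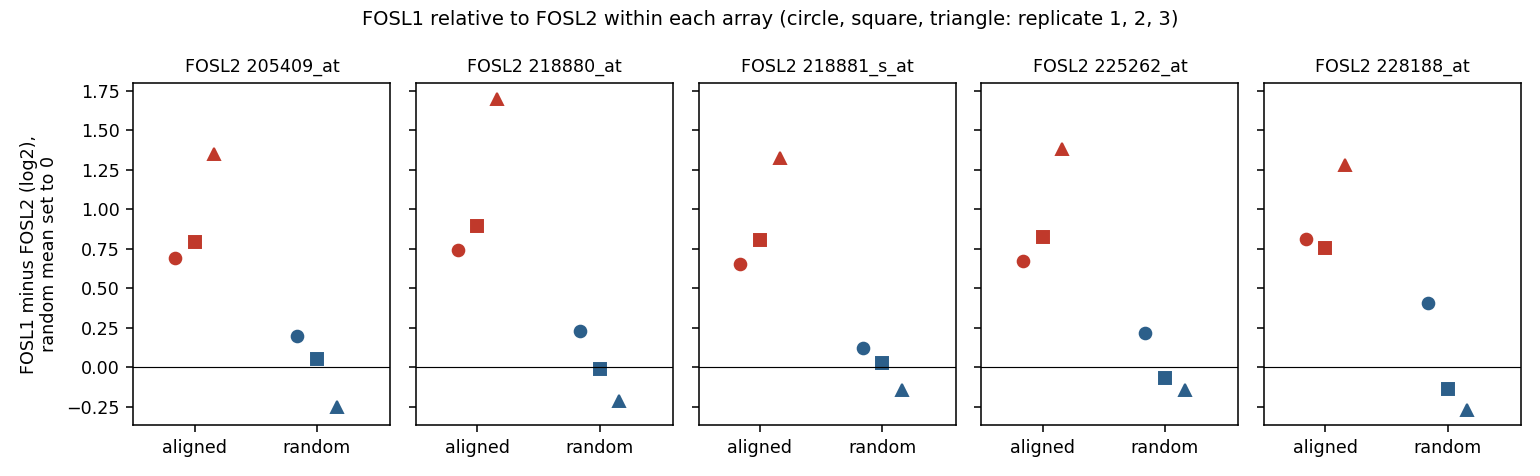
FOSL1 minus FOSL2 within each array (log2, vertical axis, shifted so that the mean of the random arrays is 0), 1 panel for each of the 5 FOSL2 probe sets. Circles, squares and triangles are replicates 1, 2 and 3. In every panel the 3 aligned arrays lie above the 3 random arrays.

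The founding members FOS and FOSB, which serum induces within minutes and which fade soon after, read close to the array median or moderately above it at 24 h. FOS (209189_at) read 6.21, 5.92 and 5.60 on aligned fibers, against 5.87, 5.74 and 5.48 on random fibers. The groups overlapped, FOS lay between percentiles 47.4 and 59.2 of its array on all 6, and the difference was 0.21 ± 0.17 (SE, unadjusted p = 0.251). It was 0.06 without aligned 1, 0.10 without random 3 and 0.36 without aligned 3 (unadjusted p = 0.039). FOS was higher in the aligned array of all 3 equal replicate numbers, by 0.33, 0.18 and 0.12. In a fit blocked on replicate number its unadjusted p was 0.041 (adjusted p = 0.371 in limma). FOSB (202768_at) read 6.77, 6.88 and 6.67 on aligned fibers, against 6.74, 6.46 and 5.88 on random fibers. Its aligned values lay close together while random 3 stood low, and the difference of 0.41 ± 0.20 (SE, unadjusted p = 0.076) was 0.17 without random 3.

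JUN, the main partner of the FOS proteins, was nearly level on 3 of its 4 probe sets. The brightest, 201464_x_at, read 11.43, 11.38 and 11.35 on aligned fibers, against 11.34, 11.40 and 11.25 on random fibers. These groups overlapped, and the difference of 0.05 had a 95% confidence interval of -0.13 to 0.24. Probe sets 201465_s_at and 201466_s_at differed by -0.02 (-0.21 to 0.18) and 0.05 (-0.14 to 0.23). The fourth, 213281_at, read 7.33, 7.40 and 7.49 on aligned fibers, against 7.11, 7.24 and 7.30 on random fibers. There the groups did not overlap, with a difference of 0.19 ± 0.09 (SE, unadjusted p = 0.061, and 0.035 in the fit blocked on replicate number). The probe sets of JUN thus disagree on whether the groups separate.

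JUNB, a JUN protein that often restrains the activity of JUN, read 7.72, 7.57 and 7.73 on aligned fibers, against 7.69, 7.66 and 7.65 on random fibers at 201473_at. The aligned values enclosed the random ones, with a difference of 0.01 and an interval of -0.18 to 0.19. JUND, the JUN protein with the steadiest expression in most tissues, read 12.16, 11.94 and 11.88 on aligned fibers, against 12.20, 12.05 and 11.93 on random fibers at 203752_s_at. Its groups overlapped, and the difference of -0.07 had an interval of -0.32 to 0.18. The other 2 kept JUND probe sets differed by 0.03 (203751_x_at) and -0.13 (214326_x_at), both with overlapping groups, and the second ranged from -0.23 without aligned 1 to -0.06 without random 1. The suffix x marks sets whose probes may also bind other transcripts. Probe set 229117_s_at of JUND lay below the filter, between 4.70 and 5.20 on aligned and between 4.76 and 4.92 on random arrays, and was not tested.

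JDP2, which pairs with JUN proteins and recruits histone deacetylase to AP-1 sites, had the widest spread of the family. At 226267_at it read 6.71, 7.40 and 8.78 on aligned fibers, against 6.71, 6.25 and 6.14 on random fibers. Aligned 1 and random 1 were equal to 2 decimals, while aligned 3 stood far above every other array. JDP2 averaged 7.63 ± 1.05 on aligned fibers, against 6.37 ± 0.30 on random ones (SD, n = 3 each), a difference of 1.26 ± 0.46 (SE), or 2.40-fold, with an unadjusted p of 0.028 and an adjusted p of 0.507 in limma. Without aligned 3 the JDP2 difference was 0.69 (unadjusted p = 0.024), and without aligned 1 it was 1.72. Without random 2 and without random 3 it was 1.20 and 1.15 (unadjusted p = 0.073 and 0.090 in limma). In the two-sample test without shrinkage its unadjusted p was 0.117. The second JDP2 probe set, 239085_at, was dim, between 3.58 and 3.85 on aligned and between 3.50 and 3.78 on random arrays, and was not tested.

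BATF3, a short basic leucine zipper protein that pairs with JUN and is best known from dendritic cells, had the same order of the 6 arrays as JDP2. Probe set 220358_at read 6.97, 7.35 and 7.66 on aligned fibers, against 7.07, 6.97 and 6.78 on random fibers. Aligned 1 lay within the random range, and the other aligned arrays lay above it. The difference was 0.39 ± 0.17 (SE, unadjusted p = 0.055), and 0.22 without aligned 3.

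MAFF, which as a small MAF protein partners the NRF family at antioxidant response elements, was higher on aligned fibers at both of its probe sets. At 205193_at it read 7.78, 7.51 and 7.96 on aligned fibers, against 7.50, 7.25 and 6.77 on random fibers. The lowest aligned array only just exceeded the highest random array, and the difference was 0.58 ± 0.20 (SE), or 1.49-fold (unadjusted p = 0.019, adjusted p = 0.506 in limma). At 36711_at it read 8.88, 8.40 and 9.14 on aligned fibers, against 8.55, 8.20 and 7.64 on random fibers. Here aligned 2 lay below random 1, and the difference was 0.67 ± 0.26 (SE, unadjusted p = 0.033). Without random 3, its lowest array, the MAFF differences were 0.37 and 0.43 (unadjusted p = 0.051 and 0.113). Without aligned 3 they were 0.47 and 0.50 (unadjusted p = 0.059 and 0.101), and with array weights 0.32 and 0.26 (unadjusted p = 0.040 and 0.175).

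Differences were also taken between arrays of equal replicate number. Between arrays of the same number, 13 of the 20 AP-1 probe sets had 1 sign in all 3 pairs, against 42.9% of all probe sets. Of the 13, 6 were positive and 7 negative, and 5 of the 7 belong to FOSL2 alone. The largest difference by size lay between the arrays numbered 3 in 15 of the 20, where the same held for 64.9% of all probe sets. FOSL1 differed by 0.31, 0.48 and 1.01 in pairs 1, 2 and 3, MAFF (36711_at) by 0.32, 0.19 and 1.50, and JDP2 by -0.0023, 1.15 and 2.64. When the number entered the fit as a block, the count of higher probe sets at an unadjusted p under 0.05 was 7 in place of 4, with FOS, FOSB and JUN (213281_at) added, and the count of lower ones was 5. The blocked fit called 13.4% of all probe sets, against 9.69% without the block.

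**Figure D4:**
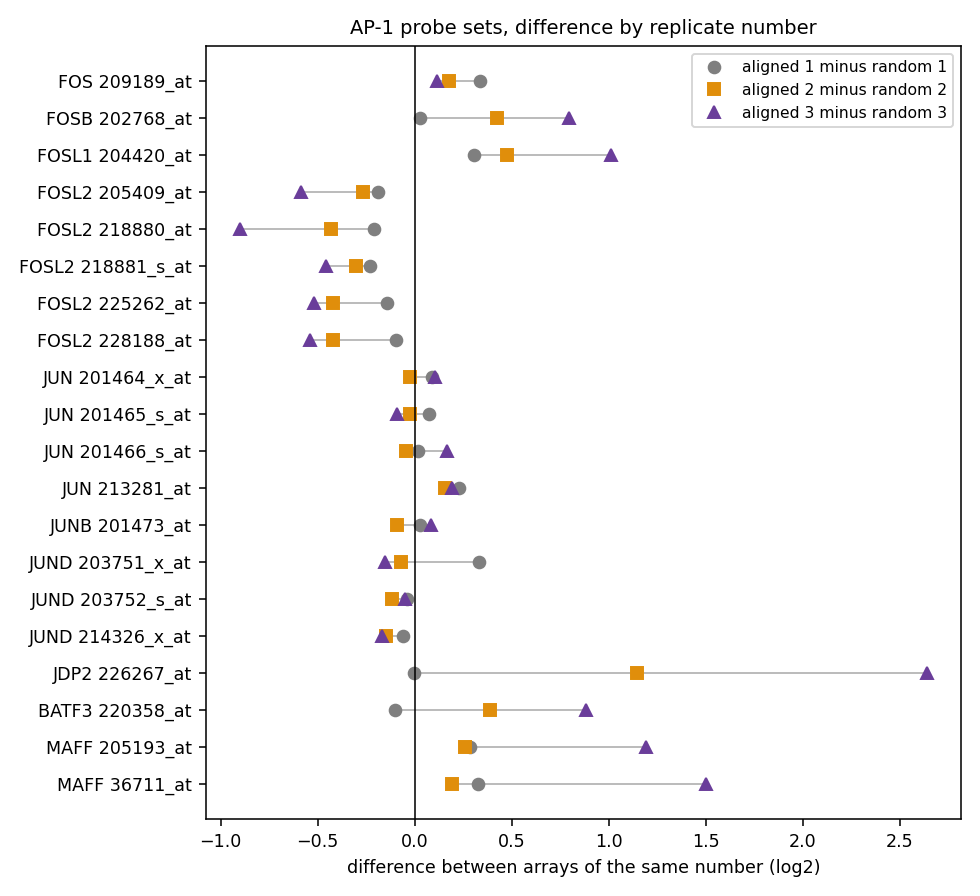
Difference between the aligned and the random array of the same replicate number (log2, horizontal axis) for the 20 kept AP-1 probe sets. The pair numbered 3 (violet triangles) gives the farthest point from 0 in 15 of the 20, with JDP2 at 2.64, and FOSL2 lies below 0 in all pairs at all 5 probe sets.

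Genes around AP-1 were taken from 5 lists of textbook partners and relatives, regulators and targets, each gene at its brightest kept probe set. Together they held 105 measured genes, of which 0 passed the adjusted threshold in limma (background 0%). At an unadjusted p under 0.05 there were 17, or 16.2%, beside 9.69% of all probe sets and 10.5% of all genes counted at 1 probe set each. Of these, 11 were higher and 6 lower (background 3.86% and 5.83%). The count was 10 without aligned 3, 9 without random 3 and 27 without aligned 1, where 5.41%, 4.57% and 17.4% of all probe sets passed. Their median difference was 0.02, against -0.0034 over all probe sets.

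Other basic leucine zipper factors, only some of which pair with FOS or JUN proteins, went both ways. Of 21 measured, 3 were higher and 2 lower at an unadjusted p under 0.05 (background 3.86% and 5.83%). The adjusted threshold was passed by 0, and the median difference was 0.08. ATF3, a stress-induced partner of JUN proteins, read 8.45, 8.62 and 9.77 on aligned fibers, against 8.37, 7.97 and 7.68 on random fibers. The ATF3 groups did not overlap, and the difference of 0.94 ± 0.34 (SE) was 0.53 without aligned 3, and its unadjusted p of 0.026 was 0.051 in the fit blocked on replicate number. ATF4, the regulator of the amino acid response, differed by 0.64 ± 0.23 (SE) with overlapping groups, and by 0.39 without aligned 3. The large MAF protein gene MAF was lower in all aligned arrays, with 6.60, 6.49 and 5.94 on aligned fibers, against 7.09, 6.85 and 7.44 on random fibers, a difference of -0.78 ± 0.20 (SE, unadjusted p = 0.0055, adjusted p = 0.506 in limma). MAF and MAFF thus differed in opposite directions. CREB3, a factor of the endoplasmic reticulum, differed by -0.25 ± 0.09 (unadjusted p = 0.064 without aligned 3), and ATF2, a partner of JUN that stress kinases activate, by -0.21 ± 0.10 (SE).

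Genes of the ERK, JNK and p38 cascades, of which some kinases phosphorylate FOS and JUN proteins, ranged from -0.61 to 0.46. Of 27 measured, 0 were higher and 1 was lower at an unadjusted p under 0.05 (background 3.86% and 5.83%). The adjusted threshold was passed by 0, and the median difference was 0.02. All aligned arrays were higher in 4 of the 27 and all were lower in 2, against 7.61% and 8.86% of all probe sets. The lower one was MAP2K6, an activator of p38, with 7.09, 7.30 and 6.81 on aligned fibers, against 7.41, 7.57 and 8.06 on random fibers. Its groups did not overlap, and the difference was -0.61 ± 0.19 (SE, unadjusted p = 0.012). The p38 substrate MAPKAPK3, the ribosomal S6 kinase RPS6KA2 and the p38 kinase MAPK12 differed by 0.46 ± 0.20, 0.42 ± 0.20 and 0.17 ± 0.08 (SE), none at an unadjusted p under 0.05. Without aligned 3 MAPKAPK3 differed by 0.22 and RPS6KA2 by 0.18, and in the blocked fit MAPKAPK3 had an unadjusted p of 0.017. MAPK8, which encodes the JUN kinase JNK1, differed by 0.09 ± 0.09 (SE).

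Among SRF, its cofactors and the MEF2 factors, known from the promoters of FOS and JUN, 10 genes were measured. Of these, 1 was higher and 0 were lower at an unadjusted p under 0.05 (background 3.86% and 5.83%), and 0 passed the adjusted threshold. FHL2, a LIM protein that binds FOS, JUN and SRF, read 10.89, 11.05 and 11.40 on aligned fibers, against 10.71, 10.67 and 10.38 on random fibers. The groups did not overlap, with a difference of 0.53 ± 0.15 (SE, unadjusted p = 0.0084) and 0.38 without aligned 3. SRF itself differed by 0.20 ± 0.11, MEF2D by 0.19 ± 0.10, MRTFA by -0.16 ± 0.09 and MEF2C by -0.39 ± 0.19 (SE). Without aligned 3 MEF2C differed by -0.15, and without random 3 SRF differed by 0.12. Of 18 coactivators, corepressors and ubiquitin ligases, 0 passed the adjusted threshold. At an unadjusted p under 0.05, 0 were higher and 1 was lower (background 3.86% and 5.83%). That one was the acetyltransferase gene CREBBP, at 8.13, 8.13 and 8.12 on aligned fibers, against 8.28, 8.34 and 8.30 on random fibers, a difference of -0.18 ± 0.07 (SE). Its unadjusted p of 0.036 was at least 0.059 with any 1 array left out. The values of the related EP300, of the deubiquitinase USP28 and of the coactivator NCOA1 differed by -0.15 ± 0.09, -0.20 ± 0.11 and -0.20 ± 0.12 (SE). Without aligned 3 EP300 differed by -0.09 and USP28 by -0.12, and without aligned 2 NCOA1 differed by -0.32.

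**Figure D5:**
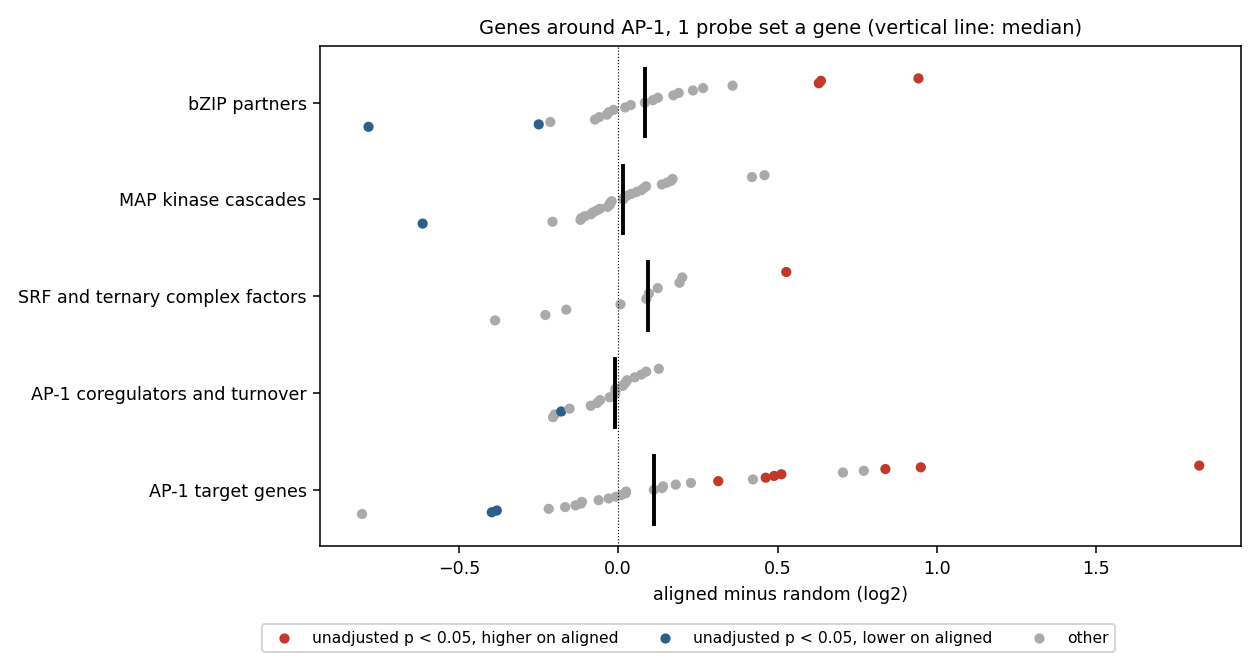
Difference between aligned and random fibers (log2, horizontal axis) for the measured genes of 5 lists around AP-1, each point 1 gene at its brightest kept probe set and each vertical line the median of a list. Colours mark genes at an unadjusted p under 0.05, red for higher and blue for lower on aligned fibers, and CXCL8 at 1.82 is the farthest point.

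Of 29 measured textbook targets of AP-1, 7 were higher and 2 lower at an unadjusted p under 0.05 (background 3.86% and 5.83%). The adjusted threshold was passed by 0, and the median difference was 0.11. CXCL8, a chemokine for neutrophils, read 10.40, 9.30 and 10.70 on aligned fibers, against 9.26, 7.98 and 7.69 on random fibers. Its groups did not overlap by a narrow margin at aligned 2 and random 1, and the difference was 1.82 ± 0.47 (SE, unadjusted p = 0.0053). HBEGF, a ligand of the EGF receptor, read 8.52, 8.29 and 9.01 on aligned fibers, against 8.03, 7.76 and 7.18 on random fibers, a difference of 0.95 ± 0.25 (SE) without overlap. PLAUR, the receptor of the urokinase plasminogen activator, differed by 0.51 ± 0.16 and its ligand PLAU by 0.77 ± 0.41 (SE), and the groups overlapped in both. PLAU ranged from 0.36 without random 3 to 1.20 without random 1. LOX, an enzyme that crosslinks collagen, was lower, at 7.45, 7.44 and 7.19 on aligned fibers, against 7.76, 7.61 and 7.89 on random fibers, a difference of -0.40 ± 0.11 (SE).

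The collagenase and stromelysin genes, textbook targets of FOS and JUN, lay below the filter. MMP1 read 3.16, 3.38 and 5.59 on aligned fibers, against 2.88, 3.02 and 2.81 on random fibers. MMP10, MMP3 and MMP13 were picked out after their values were seen. MMP10 read 4.34, 5.56 and 7.48 on aligned fibers, against 4.27, 4.49 and 4.28 on random fibers, and MMP3 read 4.39, 5.54 and 6.90 on aligned fibers, against 4.34, 5.07 and 4.97 on random fibers. The collagenase gene MMP13 read 4.08, 4.11 and 4.44 on aligned fibers, against 4.20, 4.21 and 4.12 on random fibers, with a difference of 0.03. In MMP1, MMP10, MMP3 and MMP13 aligned 3 was the highest array and aligned 1 the lowest of the aligned ones. JDP2, BATF3, JUN (213281_at), ATF3, ATF4 and FHL2 had this order too. The 18S ribosomal RNA control and other list genes, such as DDIT3, TIMP1 and MT2A, also had it. The order is thus not particular to the genes named. The share of this order over all probe sets was not counted. With no filter the unadjusted p of MMP1, MMP10 and MMP3 was 0.062, 0.046 and 0.155, and their adjusted p was at least 0.579 in limma.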

How the data were processed

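Deposited values are log2 levels from Affymetrix HG-U133 Plus 2 arrays. The submitters' processing notes name RMA, with which the authors made them. That method corrects background, equalises the distributions of the arrays and summarises probes. Its version is not given in the sources used here, and scanner files were not used here. Of 54675 probe sets, 62 controls were set aside, and 27621 were kept because at least 3 of 6 arrays exceeded their own median. The platform annotation gave 41091 probe sets 1 gene symbol, 1801 several and 11721 none.

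Aligned minus random was fitted with lmFit and eBayes (limma 3.58.1, R 4.3.3) across all kept probe sets, without covariates, two-sided, with Benjamini-Hochberg adjustment at 0.05. Precision is limited by 3 arrays per group, and the median standard error was 0.10 log2 units. Cultures are described as independent. No batch or scan date is given.

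Members and lists were chosen with earlier results of these data known. Text names all members, in each list up to 4 genes by lowest unadjusted p, and a few preset genes where measured. Some list genes were not analysed here. The labels give replicate numbers 1 to 3 in both groups. Deviations from group means correlated by 0.408, 0.353 and 0.123 between equal numbers. As all were over 0.1, a fit blocked on the numbers, which treats them as pairs, stands beside the unblocked one. That choice rests on these same values, not on a label, so the blocked fit does not show that the cultures were paired. Aligned 2 with random 3, of unequal number, gave 0.111. The code was tested on simulated data. Figures were drawn with matplotlib 3.10.9.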

Additional observations from a re-analysis of the deposited data

How the results depend on the processing

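The 20 AP-1 differences and their counts were recomputed under 10 other settings and with each array left out. The adjusted count of 0 was 1 with array weights, for FOSL1 (adjusted p = 0.048, with weights of 8.49 for aligned 2 and 0.308 for aligned 3), a setting that called 291 of all 27621 probe sets, and 0 under every other setting. The unadjusted count of 9 was 4 (3 higher and 1 lower) with 1 probe set per gene or the mean of a gene's probe sets, which leave 10 values to test. Of all genes, 10.5% and 10.3% passed there. In the two-sample test without shrinkage the count was 1 (1 higher, 0 lower), against 6.28% of all probe sets. With the 75th percentile filter, which leaves 13, the higher count was 2, and with the replicate block it was 7. In either direction these settings called 9.97% and 13.4% of the probe sets tested. With 1 array left out the count was 2 to 9, the higher count 2 to 5 and the lower count 0 to 5. Of all probe sets, 4.57% to 17.4% passed on leaving out 1 array. Leaving out aligned 3 gave 5 and leaving out random 2 gave 2. The lower count was 3, 2, 1 and 0 on leaving out aligned 2, aligned 3, random 1 and random 2, and the higher count 2 on leaving out random 2 or random 3. The count of 17 list genes was 9 to 27. The change of FOSL1 against FOSL2 was 0.75 to 1.10, the lowest without aligned 3. Near-zero differences turned sign: JUNB (-0.024 to 0.059, and -0.083 with array weights), JUND 203751_x_at (-0.12 to 0.12, and -0.074 with array weights) and 203752_s_at (-0.15 to 0.00035), JUN 201465_s_at (-0.062 to 0.044) and 201466_s_at (-0.00069 to 0.086). FOSL1, FOSL2, JDP2, BATF3, MAFF, FOS and FOSB kept their sign in every setting. The cause of these changes was not tested unless named.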
